A study of Homo sapiens with 8 samples.

Results

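ZBED genes carry a BED-type zinc finger and descend from the transposase genes of hAT DNA transposons. ZBED1, ZBED3, ZBED4 and ZBED5 were taken by symbol from the expression tables of BCPAP and CAL-62, human thyroid carcinoma cell lines. All 4 were listed in both tables, out of 12715 genes listed in either and 10698 listed in both. Among them ZBED5 was chosen by its measured fall in CAL-62, which was among the largest of the series, so its values in comparisons that use CAL-62 libraries are a description and carry no test. The other 3 members are tested throughout.

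In such genes a transposase lost its ability to move DNA and the host kept the protein, mostly with the DNA-binding finger and the dimerisation region of the ancestral enzyme. ZBED1 is the human counterpart of the fly factor DREF and binds promoters of genes for growth and protein synthesis. ZBED3 binds axin and raises beta-catenin signalling, ZBED4 is a nuclear protein best known from the retina, and ZBED5, with the older name Buster1, keeps a long remnant of the transposase and has no well-defined function.

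Cells received THZ1 at 100 nM for 6 h, or the vehicle DMSO. THZ1 binds CDK7 covalently and blocks this TFIIH kinase, which acts on RNA polymerase II. There were 2 poly(A)-selected libraries in each of 4 groups: BCPAP with DMSO, BCPAP with THZ1, CAL-62 with DMSO and CAL-62 with THZ1. BCPAP grew in RPMI 1640 with 10% serum and CAL-62 in DMEM with 20% serum, so differences between lines and between media cannot be told apart. The labels call both lines anaplastic thyroid carcinoma. Each is a single established line, and the labels name no genetic change. Nothing states that replicates were grown separately, and p-values therefore rest on a spread between libraries that may be technical.

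Values are RPKM-type (reads per gene length and a library constant), and a gene entered a line's table only with a DMSO mean of at least 1. The constant is not the read total: it was below the reads in listed genes in THZ1 libraries and above them in DMSO libraries. In CAL-62 replicate 1 it stood for 13804955 reads against 16681826 after THZ1, and for 21580812 against 18778397 under DMSO. Reads in listed genes ran from 16681826 to 19988647 per library. Reads of mitochondrially encoded genes made up 3.74% to 6.26% of CAL-62 DMSO libraries and 5.45% to 10.3% of CAL-62 THZ1 libraries, against 2.69% to 5.07% in BCPAP. Their part in the results was not tested. Of 10 thyroid markers the BCPAP table listed PAX8, NKX2-1 and FOXE1 and the CAL-62 table listed PAX8 alone, while TG and TSHR, which define differentiated thyroid cells, were in neither table. In CAL-62, PAX8 ran from 91.1 to 117 under DMSO and from 5.20 to 29.8 after THZ1. The epithelial markers KRT8, KRT18, KRT19 and EPCAM (4 of 5 listed) summed to 895 to 924 in CAL-62 under DMSO and 1651 to 1776 after THZ1, and KRT8 and KRT18 (2 of 5 listed) to 465 to 604 and 532 to 906 in BCPAP. The part of these markers in the results was not tested. Markers of blood (6) and endothelial cells (4) were in neither table, and of 6 fibroblast markers COL1A1 alone was listed.

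The RefSeq promoters (GRCh38.p14, 250 bases before to 50 after the start) are shown for the 3 hAT-derived genes with the lowest THZ1 changes in CAL-62, ZBED5, ZBED8 and FAM200A, and for ZBED4, whose groups there overlapped. ZBED8, also called Buster3 and now FAM200C in RefSeq, and FAM200A are relatives of ZBED5. Each runs 5′ to 3′ on its gene's strand. Capitals mark letters searched on both strands. The TATA box was searched as TATAAA and the CCAAT box by the letters of its name. For the GC box the letters were GGGCGG, and for the core that ETS factors bind they were CCGGAAG. The windows are chr11:10858004-10858303 (minus strand) for ZBED5, chr5:160400005-160400304 (minus strand) for ZBED8, chr7:99552065-99552364 (minus strand) for FAM200A and chr22:49853594-49853893 (plus strand) for ZBED4.
ZBED5: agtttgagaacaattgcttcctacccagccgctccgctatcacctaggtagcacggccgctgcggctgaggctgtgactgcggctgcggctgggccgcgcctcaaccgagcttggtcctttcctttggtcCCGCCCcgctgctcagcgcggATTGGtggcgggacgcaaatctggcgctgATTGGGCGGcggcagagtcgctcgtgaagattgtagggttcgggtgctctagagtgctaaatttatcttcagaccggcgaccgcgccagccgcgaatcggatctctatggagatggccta
ZBED8: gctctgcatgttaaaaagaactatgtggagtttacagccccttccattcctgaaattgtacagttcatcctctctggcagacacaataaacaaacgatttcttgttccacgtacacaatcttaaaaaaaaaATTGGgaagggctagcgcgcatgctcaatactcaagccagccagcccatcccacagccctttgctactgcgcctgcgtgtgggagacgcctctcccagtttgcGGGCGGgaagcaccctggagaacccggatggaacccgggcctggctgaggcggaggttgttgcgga
FAM200A: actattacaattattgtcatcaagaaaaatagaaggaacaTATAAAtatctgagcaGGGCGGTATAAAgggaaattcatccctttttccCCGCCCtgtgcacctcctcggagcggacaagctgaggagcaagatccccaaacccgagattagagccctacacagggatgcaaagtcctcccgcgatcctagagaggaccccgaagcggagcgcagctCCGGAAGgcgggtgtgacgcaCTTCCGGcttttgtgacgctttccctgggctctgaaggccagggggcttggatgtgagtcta
ZBED4: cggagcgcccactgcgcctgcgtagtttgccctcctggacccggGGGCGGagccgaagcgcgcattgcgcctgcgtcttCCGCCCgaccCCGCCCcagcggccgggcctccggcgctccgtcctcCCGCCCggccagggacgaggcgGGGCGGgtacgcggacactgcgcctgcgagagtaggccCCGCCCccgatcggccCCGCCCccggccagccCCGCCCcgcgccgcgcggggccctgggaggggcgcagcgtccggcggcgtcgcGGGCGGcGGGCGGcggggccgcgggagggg

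The ZBED5 window held 2 CCAAT boxes, 99 and 70 bases before the start, and 2 GC boxes, 120 and 67 bases before it. The nearer CCAAT and GC boxes share 2 letters, so they are not separate matches. ZBED8 held 1 CCAAT box and 1 GC box, and FAM200A held 2 TATA boxes, 2 GC boxes and 2 ETS cores. Its TATA boxes lie 210 and 188 bases before the annotated start. ZBED4 held 10 GC boxes and no other motif searched.

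G and C made up 61.7% of the ZBED5 window, 52.7% of that of ZBED8, 53.3% of that of FAM200A and 83.3% of that of ZBED4, against a median of 58.7% over 35116 promoters. Among genes not called in CAL-62, the share was 52.3% for ZBED3, 65% for FAM200B and 56.7% and 40.3% for the 2 starts of ZBED6. It was 78.7% and 82% for the 2 starts of ZBED1, also not called. A relation of this share to the response was not tested. Of the 35116 promoters 34.6% held a CCAAT box, 45% a GC box, 11.5% a TATA box and 10.3% an ETS core, so both motifs of ZBED5 are common. The ZBED1 binding site (searched as TGTCGCGA and TGTCGTGA) occurs in 0.467% of promoters and was not among the letters of the 4 windows shown. These are matches of letters, not measured binding.

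ZBED5, the hAT-derived gene chosen for its fall, went from the highest of the 4 members to the lowest in CAL-62. DMSO-treated CAL-62 cells gave 19.0 and 16.6 (1126 and 1075 reads), and THZ1-treated ones gave 1.48 and 0.858 (56 and 44 reads). Both THZ1 libraries lay below both DMSO libraries, an order found in 27.4% of genes tested in CAL-62 (the reverse order in 30.1%). The group means were 17.8 ± 1.69 and 1.17 ± 0.439 (SD, n = 2), which is 15.3-fold lower with 6.55% of the DMSO value left. On the log2(value + 1) scale, which understates changes of low genes, the change was -3.13 (SE 0.34), and -3.01 and -3.25 within replicate numbers 1 and 2. In these bulk samples, fewer cells with the transcript and less transcript per cell cannot be told apart.

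That change placed ZBED5 7th from the lowest of 11362 genes tested in CAL-62. The ranking of 227 falls that chose the gene, which takes called genes (limma adjusted p under 0.05) whose mean reached 5 and whose groups did not overlap, puts it 3rd by size. That place restates the choice and supports nothing. Just above it stood the small nucleolar RNA SNORD44 (-3.96) and XBP1 (-3.24), a transcription factor of the endoplasmic reticulum stress response. Just below stood the small nucleolar RNA SNORD81 (-2.949) and the uncharacterised LOC100509100 (-2.947). In level, ZBED5 went from above 68.1% of the genes listed in CAL-62 under DMSO to above 8.78% of them after THZ1.

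**Figure D1:**
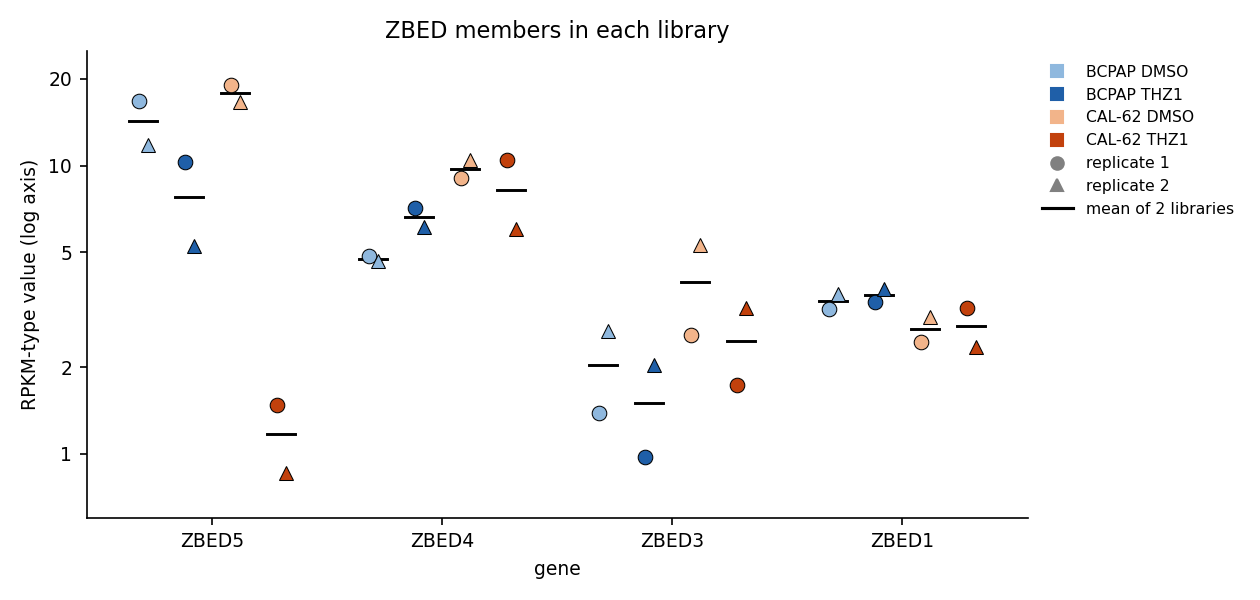
RPKM-type values (log axis) of the 4 ZBED genes in each of the 8 libraries, by line and treatment, with circles for replicate 1, triangles for replicate 2 and a bar for the mean of 2 libraries. ZBED5 in CAL-62 after THZ1 sits at 1.48 and 0.858, under all other ZBED5 points, whereas ZBED4, ZBED3 and ZBED1 overlap between DMSO and THZ1 in CAL-62.

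The ranking that chose ZBED5 went by its change in CAL-62, but its calls used a spread estimate shared with the BCPAP libraries. The BCPAP p-value is therefore not fully independent of the choice. In BCPAP too, both THZ1 libraries were lower than both DMSO libraries for ZBED5. The values were 16.8 and 11.8 under DMSO (910 and 666 reads) and 10.2 and 5.27 after THZ1 (508 and 256 reads). The means were 14.3 ± 3.52 and 7.76 ± 3.52 (SD, n = 2), with 54.3% left. The change was -0.84 (SE 0.34, 95% interval -1.63 to -0.065), with an unadjusted limma p of 0.0371 and an adjusted p of 0.932, so ZBED5 was not called in BCPAP. It was 138th from the lowest of 11743 genes tested there. No gene was called in BCPAP by limma (0% of 11743, with 471 at an unadjusted p under 0.05) or by limma-voom on whole reads. Both THZ1 libraries lay below both DMSO libraries in 16.4% of genes tested in BCPAP.

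The ZBED5 change in CAL-62 minus that in BCPAP was -2.29 on the log2 scale (SE 0.48), given without a test because the CAL-62 response chose the gene. Under DMSO the lines overlapped: ZBED5 was 16.6 to 19.0 in CAL-62 and 11.8 to 16.8 in BCPAP. In each of the 4 groups the replicate 2 value of ZBED5 was below the replicate 1 value, at 0.515 to 0.874 of it. Such an order in 4 of 4 groups was found in 24.9% of the 10698 genes in both tables, and the labels do not say what the numbers stand for.

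Of the 5 genes most like ZBED5 over the 8 libraries, 4 are described. Likeness was the root mean square difference of log2(value + 1), each gene centred on its own mean, over 7920 genes with a mean of at least 5. The closest was CSTF2T, a cleavage stimulation factor of mRNA 3′ end formation (0.386), then FTSJD1, a cap methyltransferase now named CMTR2 (0.396), the small nucleolar RNA SNORD27 (0.426) and XBP1 (0.4305). ZBED5 itself varied by 1.25 around its mean on this scale. CSTF2T was 15.5 and 13.6 in BCPAP DMSO, 11.0 and 7.42 in BCPAP THZ1, 11.95 and 12.1 in CAL-62 DMSO and 2.03 and 1.74 in CAL-62 THZ1. It kept 15.7% of its CAL-62 DMSO level and 63.3% of its BCPAP one, against 6.55% and 54.3% for ZBED5. SNORD27 rests on 1 read in each CAL-62 THZ1 library.

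**Figure D2:**
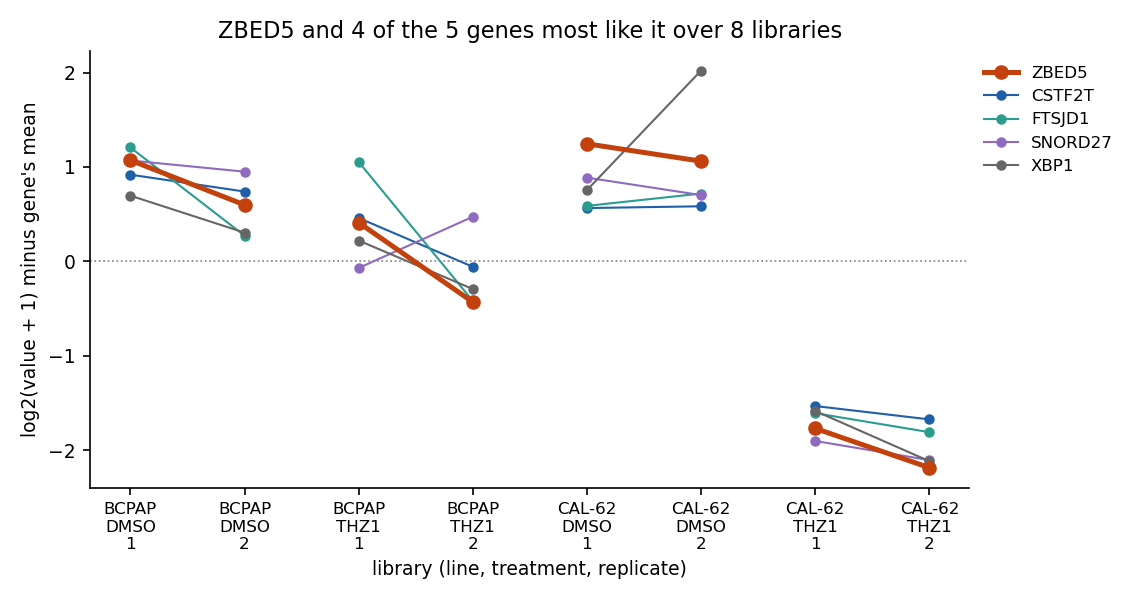
Log2(value + 1) minus each gene's mean over the 8 libraries (vertical axis) for ZBED5 and 4 of the 5 genes most like it, by library (horizontal axis), with lines joining the 2 replicates of a group. All 5 genes plotted are lowest in the CAL-62 THZ1 libraries, and XBP1 stands apart in CAL-62 DMSO replicate 2. The 4 genes were picked for likeness to ZBED5 over these libraries, so the shared low point restates that choice.

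ZBED4, the nuclear protein gene counted over 6886 bases, had no called change after THZ1 in either line. In CAL-62 it was 9.08 and 10.4 under DMSO and 10.4 and 6.02 after THZ1, with overlapping groups. The change was -0.26 (SE 0.28, 95% interval -0.90 to 0.38, limma adjusted p = 0.553), and the 2 replicate numbers differed in sign (0.18 and -0.70). In BCPAP it was 4.84 and 4.67 under DMSO and 7.13 and 6.13 after THZ1. Both BCPAP THZ1 libraries were higher, an order found in 21.9% of genes tested there, and the change of 0.40 (SE 0.28, 95% interval -0.24 to 1.05) was not called (limma adjusted p = 0.932). The responses of the lines differed by -0.66 (SE 0.39, limma adjusted p = 0.843).

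Of the 3 tested members, ZBED4 had the largest difference between the lines. Under DMSO it was 9.75 ± 0.955 in CAL-62 and 4.76 ± 0.122 in BCPAP (SD, n = 2), 2.05-fold higher in CAL-62 with no overlap. Both CAL-62 libraries were above both BCPAP libraries in 33.3% of genes. The difference of 0.90 (SE 0.28, 95% interval 0.26 to 1.54) had an unadjusted limma p of 0.0123 and an adjusted p of 0.0684. In this comparison 3373 of 10653 genes had an unadjusted limma p under 0.05. Between the lines 1505 of 10653 genes were called (14.1%; 6.32% higher and 7.81% lower in CAL-62), and of the 3 tested members none was, by limma. limma-voom on whole reads called ZBED4 (adjusted p = 0.0452).

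The genes whose pattern was most like that of ZBED4 were ETV5, an ETS transcription factor induced by the ERK pathway (0.0863), the ubiquitin ligase NEDD4L (0.107), the phosphodiesterase PDE7A (0.110), the zinc finger gene IKZF5 (0.119) and the ubiquitin ligase RNF8 (0.120). ETV5 had DMSO means of 20.1 in BCPAP and 38.3 in CAL-62, and THZ1 means of 23.5 and 32.0. ETV5 was picked for its likeness to ZBED4 over these libraries, so its higher DMSO level in CAL-62 restates that choice. ZBED4 itself varied by 0.38 around its mean.

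ZBED3, the axin-binding member, was low in all groups and differed more between replicate numbers than between treatments. In CAL-62 it was 2.58 and 5.29 under DMSO (79 and 177 reads) and 1.74 and 3.20 after THZ1 (34 and 85 reads). In BCPAP it was 1.39 and 2.67 under DMSO (39 and 78 reads) and 0.974 and 2.03 after THZ1 (25 and 51 reads). The groups overlapped in both lines. The change was -0.49 in CAL-62 (SE 0.39, 95% interval -1.40 to 0.43, limma adjusted p = 0.433) and -0.28 in BCPAP (SE 0.39, 95% interval -1.19 to 0.64, limma adjusted p = 0.941). Leaving out 1 library moved the CAL-62 change between -0.89 and -0.078.

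Within each replicate number ZBED3 was lower after THZ1, with log2 changes of -0.39 and -0.58 in CAL-62 and -0.28 in each pair of BCPAP. The replicate 2 value was 1.85 to 2.08 times the replicate 1 value in the 4 groups. A ratio of at least 1.5 in all 4 groups was found in 2.79% of the genes in both tables, a property looked up after the ZBED3 values were seen. The difference between the responses was -0.21 (SE 0.56, limma adjusted p = 0.944). ZBED3 was 1.94-fold higher in CAL-62 than in BCPAP under DMSO, with overlapping libraries and a difference of 0.68 (SE 0.39, limma adjusted p = 0.278). Its exons overlap those of the antisense gene ZBED3-AS1 in GENCODE 29, as those of ZBED5 overlap ZBED5-AS1. Without a stated strand setting, reads of a gene and its antisense partner cannot be told apart.

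The complement-related gene C1RL (0.0961), C15orf61 (0.116), EID2, an inhibitor of differentiation (0.119), NNMT, nicotinamide N-methyltransferase (0.131), and the calcium channel subunit gene CACNB1 (0.141) were the genes most like ZBED3, among 10652 with a mean of at least 1. ZBED3 varied by 0.485 around its mean. At 25 to 177 reads per library, counting error alone is 6.25% to 11.5% of the summed reads of a group.

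No comparison called ZBED1, the DREF counterpart. It was 2.44 and 2.99 in CAL-62 under DMSO and 3.20 and 2.35 after THZ1, and 3.18 and 3.58 in BCPAP under DMSO and 3.36 and 3.73 after THZ1. The groups overlapped in both lines. The change was 0.02 in CAL-62 (SE 0.23, 95% interval -0.52 to 0.55, limma adjusted p = 0.968) and 0.05 in BCPAP (SE 0.23, 95% interval -0.48 to 0.59, limma adjusted p = 0.979). These intervals leave room for changes of about 0.5 in either direction. CAL-62 was below BCPAP under DMSO with no overlap (-0.24, SE 0.23, limma adjusted p = 0.508), an order found in 33.3% of genes. The genes most like it were C20orf11 (0.0924), SUFU, a negative regulator of Hedgehog signalling (0.0928), the RNA helicase DDX42 (0.108), the palmitoyltransferase ZDHHC17 (0.109) and the histone demethylase KDM3B (0.110).

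ZBED1 lies in the pseudoautosomal region that X and Y share, and this bears on its level. The length behind its values came out at 9478 bases, or 2 times 4739, against 4510 in its GENCODE 29 transcript. The 10 listed pseudoautosomal genes had a median of 2.03 for this ratio of counted to annotated length, against 1 for the other genes. Divided by 4739 bases, the same reads give 4.70 to 7.46 per library in place of 2.35 to 3.73. Ratios between libraries are the same on either length.

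Ranked by level per length, ZBED5 stood first in both lines under DMSO, with libraries apart from those of ZBED4, which came next. In BCPAP ZBED1 followed and ZBED3 came last, also apart. In CAL-62 ZBED3 and ZBED1 overlapped. After THZ1 ZBED5 and ZBED4 overlapped at the top in BCPAP, while in CAL-62 ZBED4 came first, ZBED1 and ZBED3 overlapped and ZBED5 came last, apart from the rest. On the single-copy length ZBED1 would be 6.35 and 7.16 in BCPAP under DMSO, above the 4.84 and 4.67 of ZBED4.

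Of the 3 members tested in CAL-62, none was called by limma (background 4.62% of 11362 genes, 0.581% higher and 4.04% lower) or by limma-voom. None of the 3 had an unadjusted limma p under 0.05, a level that 3418 of the 11362 genes reached. Of the 4 tested in BCPAP none was called, where no gene of 11743 was. ZBED5 had an unadjusted limma p under 0.05 there, as did 471 of the 11743 genes. That p-value is not fully independent of the choice of ZBED5. For the difference of the THZ1 responses, where no gene of 10653 was called by limma or limma-voom (0%, with 562 at an unadjusted limma p under 0.05), none of the 3 was called either.

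Among the other ZBED genes, ZBED8 fell in CAL-62. DMSO libraries held 2.56 and 2.19 (155 and 145 reads) and THZ1 libraries 0.387 and 0.0381 (15 and 2 reads), with no overlap. Both THZ1 libraries were lower in 27.4% of genes tested in CAL-62. The ZBED8 means were 11.2-fold apart, and the change of -1.49 (SE 0.24) was called (limma adjusted p = 0.0232). In BCPAP it was 1.91 and 1.68 under DMSO and 0.965 and 0.483 after THZ1, both lower, an order found in 16.4% of genes tested there. ZBED8 had 40.4% left in BCPAP and a change of -0.71 (SE 0.24, limma adjusted p = 0.932). The difference between the responses of the lines was -0.78 (SE 0.34, limma adjusted p = 0.843). The call in CAL-62 was lost without CAL-62 DMSO replicate 1, CAL-62 DMSO replicate 2 or CAL-62 THZ1 replicate 2, with CAL-62 fitted alone and with mitochondrially encoded genes as the reference, and over all alternatives its adjusted p ran from 0.00665 to 0.146.

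FAM200A, another gene of hAT origin, fell in CAL-62 in the same range. It was 2.48 and 2.63 under DMSO and 0.349 and 0.129 after THZ1, 10.7-fold lower, with a change of -1.52 (SE 0.31, limma adjusted p = 0.041). In BCPAP it was 2.25 and 1.58 under DMSO and 2.36 and 0.817 after THZ1, with overlapping groups and a change of -0.23 (SE 0.31, limma adjusted p = 0.941). The difference between the responses was -1.29 (SE 0.44, limma adjusted p = 0.834). Leaving out any of the DMSO libraries of either line, or either CAL-62 THZ1 library, ended this call, as did the same changes of fit and reference, with adjusted p between 0.0077 and 0.219 over all alternatives. Its paralog FAM200B was 3.13 and 2.59 in CAL-62 under DMSO and 2.82 and 2.43 after THZ1, a change of -0.09 (SE 0.22, limma adjusted p = 0.812).

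ZBED6, which represses IGF2 in muscle, was 2.10 and 2.61 in CAL-62 under DMSO and 3.52 and 2.02 after THZ1. In BCPAP it was 4.61 and 5.67 under DMSO and 8.01 and 5.47 after THZ1. Neither change was called (0.14 and 0.32, limma adjusted p = 0.768 and 0.932). It was lower in CAL-62 than in BCPAP under DMSO with no overlap (-0.87, SE 0.29, limma adjusted p = 0.0866), an order found in 33.3% of genes. It lies inside ZC3H11A and was counted over 2940 bases, near its coding length of 2937, so it cannot be parted from unspliced RNA of the host gene. ZBED2, a repressor of interferon response genes, was listed in BCPAP alone, at 5.61 and 11.4 under DMSO and 3.24 and 6.50 after THZ1 (-0.69, SE 0.43, limma adjusted p = 0.932). ZBED6CL was listed in CAL-62 alone, at 5.60 and 10.0 and then 8.17 and 13.3 (0.42, SE 0.37, limma adjusted p = 0.476). ZBED9, GTF2IRD2, GTF2IRD2B and ZNF862 were in neither table.

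**Figure D3:**
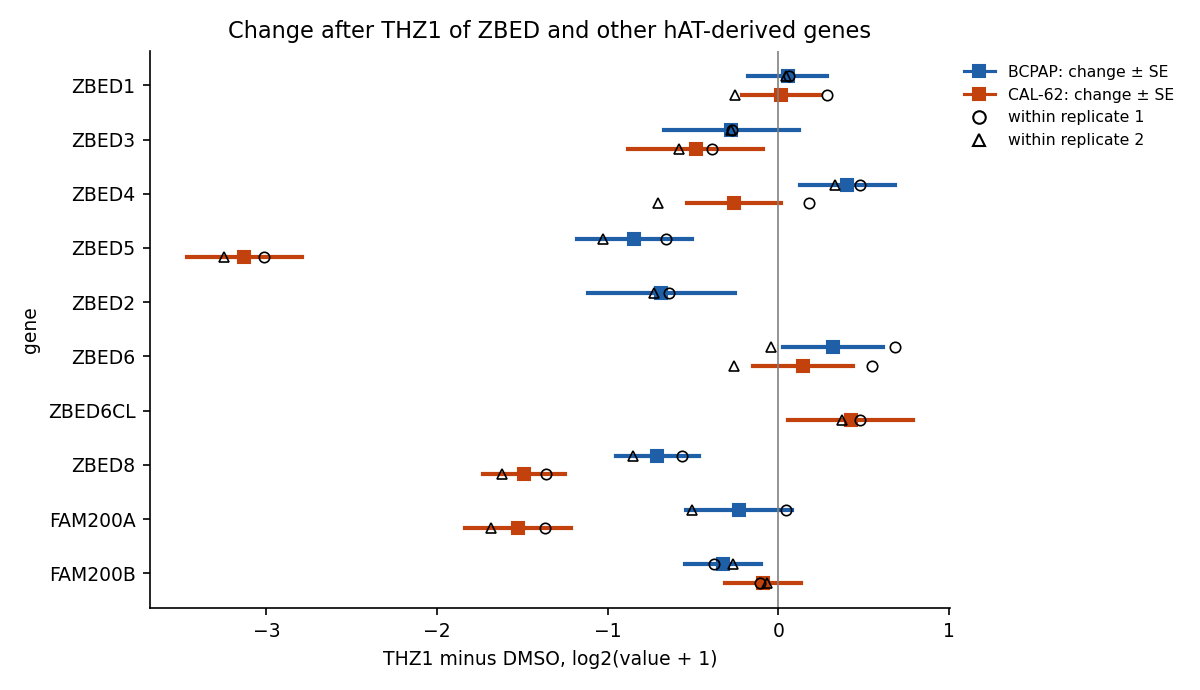
Change after THZ1 (THZ1 minus DMSO on log2(value + 1), horizontal axis) of 10 ZBED and other hAT-derived genes in BCPAP and CAL-62, with squares and bars for the fitted change ± SE and open symbols for the change within each replicate number. ZBED5 (-3.13), FAM200A (-1.52) and ZBED8 (-1.49) stand to the left in CAL-62, and the other genes lie between -0.49 and 0.42 there.

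All 10 of these genes have a single coding exon in GENCODE 29, as do 10.6% of 19936 protein-coding genes. The 440 genes tested in CAL-62 with 1 coding exon had a median change of -0.57, against 0.06 over 9474 protein-coding genes. The 3 low genes and the other 7 thus share this structure. Around the members, no neighbouring listed gene was called in either line, against 4.62% of all genes tested in CAL-62 and 0% in BCPAP. EIF4G2, a translation initiation factor gene next to ZBED5, had a change of 0.62 in CAL-62 (means of 291 and 448, limma adjusted p = 0.162), and CSNK2A1P on the other side, an intronless near-copy of CSNK2A1 whose reads are uncertain, had 0.24. BRD1 and ALG12 beside ZBED4 had -0.45 and -0.34, and AGGF1 and WDR41 beside ZBED3 had -0.73 and 0.46. DHRSX, whose exons overlap those of ZBED1, had 0.23, and CD99 beside it had 0.93 (limma adjusted p = 0.160).

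Human genes of other DNA transposon origins include several that fell in CAL-62. Over 6 lists (other ZBED, other hAT, pogo and Tigger, piggyBac, THAP, and Harbinger, mariner and Transib), 10 of 31 tested genes were called lower and none higher, or 32.3% against 4.04% of all genes tested. The median change was -0.74 against 0.03 over all genes. Numbered ZNF genes, the largest family of zinc finger genes, had 72 of 340 called lower (21.2%), none higher, and a median of -0.82; the lowest of them stood at -2.22, above ZBED5. The ZBTB, ZSCAN, ZKSCAN and ZFP genes had 14 of 54 called lower and a median of -0.83. A gene was listed in a line by its DMSO mean alone, whatever its THZ1 values. A gene low under DMSO could thus be listed and fall, but could not become listed by rising. Counts of lower against higher changes in these lists are therefore not an even comparison. Low genes of this kind were among the 10 calls. The lowest DMSO means in CAL-62 were 2.38 for ZBED8, 2.55 for FAM200A and 2.63 for HARBI1. NAIF1 (3.43), JRKL (3.71) and TIGD7 (3.81) came next. A comparison with genes of similar DMSO level was not made. The 10 calls of the 6 lists fell to 0 without CAL-62 DMSO replicate 1, without CAL-62 DMSO replicate 2 or when each line was fitted alone, and to 4 without BCPAP DMSO replicate 1, BCPAP DMSO replicate 2, CAL-62 THZ1 replicate 1 or CAL-62 THZ1 replicate 2. Other settings gave 6 to 20 calls. The share of numbered ZNF genes called lower was above that of the 6 lists in 3 settings, among them 71.5% against 64.5% with ribosomal protein genes as the reference (all genes 29.1%) and 50% against 45.2% with the sum of reads (all genes 13.0%). The count of ZNF genes called lower was 0 without either CAL-62 DMSO library or with each line fitted alone, 26 without BCPAP DMSO replicate 1, 24 without BCPAP DMSO replicate 2, 42 without CAL-62 THZ1 replicate 1 and 36 without CAL-62 THZ1 replicate 2. Other settings gave 36 to 243. Over all these settings the median of the 6 lists lay between -1.55 and -0.69.

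The pogo and Tigger genes held 5 of these 10 calls, among 9 tested, with a median of -1.39 and 9 of 9 changes below 0. Changes below 0 in CAL-62 numbered 5481 of 11362 over all genes and 309 of 340 over numbered ZNF genes. TIGD5 fell from 6.94 and 16.4 to 0.991 and 1.46 in CAL-62 (-2.41, SE 0.39, limma adjusted p = 0.0232). POGK fell from 22.1 and 18.4 to 4.96 and 5.62 (-1.75), and JRK from 7.11 and 5.98 to 1.96 and 0.710 (-1.74). JRKL (-1.39) and TIGD7 (-1.33) were also called, while TIGD2 (-1.69, limma adjusted p = 0.0512), CENPB, the centromere protein that binds alpha satellite DNA (-0.74), TIGD1 (-0.61) and POGZ, a chromatin protein (-0.24), were not. In BCPAP the same 9 genes were tested, with a median of -0.51 and 9 of 9 changes below 0, and none was called. Below 0 there were 4863 of 11743 changes over all genes and 238 of 349 over numbered ZNF genes. Genes measured in the same libraries are not independent of each other.

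Of the Harbinger, mariner and Transib list, HARBI1 and its partner NAIF1 fell in CAL-62. HARBI1, the Harbinger transposase-derived protein, went from 2.13 and 3.12 (70 and 112 reads) to 0.0952 and 0.105 (2 and 3 reads) (-1.71, SE 0.23, limma adjusted p = 0.0166). NAIF1, which binds HARBI1 and carries it into the nucleus, went from 3.64 and 3.22 to 1.00 and 1.37 (-1.02, SE 0.22, limma adjusted p = 0.0446). SETMAR, a methyltransferase fused to a mariner transposase, had -0.70 (limma adjusted p = 0.0944) and was higher in CAL-62 than in BCPAP under DMSO (1.27, SE 0.23, limma adjusted p = 0.0129).

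The THAP genes, whose DNA-binding domain resembles that of P element transposase, had 1 of 10 called in CAL-62. Over all genes tested there, 4.62% were called, 4.04% lower. THAP7 went from 15.7 and 18.8 to 3.21 and 6.03 in CAL-62 (-1.74, SE 0.32, limma adjusted p = 0.0297). THAP12, listed as PRKRIR, was the highest of the list (0.73, limma adjusted p = 0.103). Both its THZ1 libraries were above both DMSO libraries, an order found in 30.1% of genes tested in CAL-62. None of the 4 piggyBac genes was called in CAL-62 (median -0.42), and PGBD1 was higher in CAL-62 than in BCPAP under DMSO (0.93, limma adjusted p = 0.0362). TIGD1 was lower there (-1.04, limma adjusted p = 0.0346). None of these 3 line differences was called once any single DMSO library was left out, or with mitochondrially encoded genes as the reference. Of 30 genes of the 6 lists tested between the lines, 2 were called higher and 1 lower in CAL-62. Over all 10653 genes, 6.32% were called higher and 7.81% lower.

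**Figure D4:**
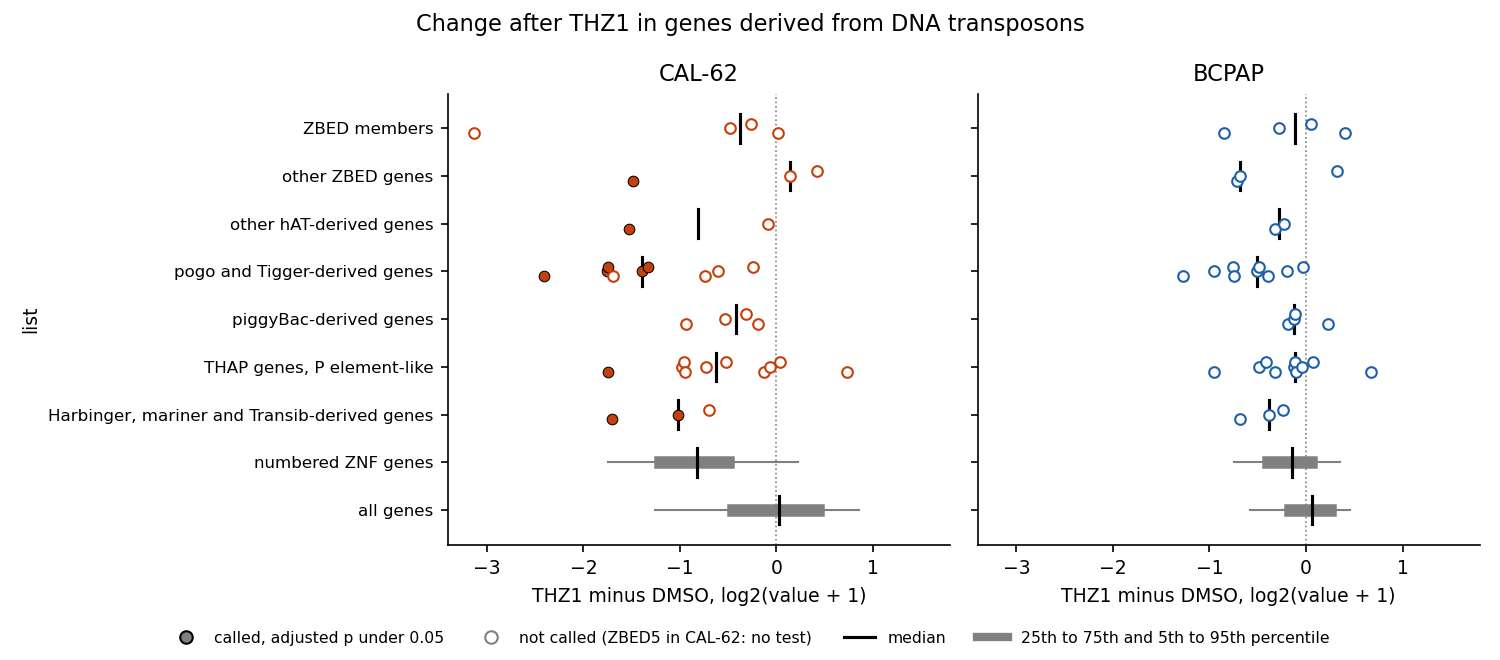
Change after THZ1 (horizontal axis, log2(value + 1)) in CAL-62 (left) and BCPAP (right) for the 4 ZBED members and 6 lists of other transposon-derived genes, 1 point per gene, filled where called, with a bar at each list's median. Grey bars give the 25th to 75th and thin lines the 5th to 95th percentile of numbered ZNF genes and of all genes. ZBED5 is the leftmost point in CAL-62, and the medians of most lists lie left of that of all genes (0.03).

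For ZBED3, the genes of the axin and beta-catenin pathway it acts on were also read. Of 9 tested in CAL-62, 1 was called, against 4.62% of all genes tested there (0.581% higher). It was CTNNB1, which encodes beta-catenin, at 55.6 and 51.9 under DMSO and 117 and 89.2 after THZ1 (0.92, SE 0.20, limma adjusted p = 0.0476). That direction turned with ribosomal protein or mitochondrially encoded genes as the reference, and 10 of 17 alternatives did not call it, among them those without any single DMSO library or CAL-62 THZ1 library. Under DMSO CTNNB1 was lower in CAL-62 than in BCPAP (-0.84, SE 0.20, limma adjusted p = 0.0336), a call that ended without any single DMSO library. AXIN1, the binding partner of ZBED3, was 17.3 and 25.6 under DMSO and 6.67 and 15.2 after THZ1 (-0.98, limma adjusted p = 0.123). In BCPAP CTNNB1 was 97.1 and 97.1 under DMSO and 127 and 139 after THZ1, and none of the 10 tested genes was called. The list's median was 0.02 in CAL-62 and 0.15 in BCPAP, near the 0.03 and 0.07 of all genes.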

How the data were processed

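RNA of 8 libraries (2 lines, 2 treatments, 2 replicates each) was selected with oligo(dT) and built into libraries by a sequencing company, per the labels' protocols. The authors' deposited files give 1 RPKM-type value per gene and library, a unit read from the values because the files have no header. Bowtie2, DESeq2 and hg19 are named, without versions or roles, per the submitters' processing notes. No source used here gives the annotation or the strand setting. Each deposited RPKM value equalled a whole number of reads over a whole length and a library constant, within 0.02 reads, for all 12715 genes, so reads and lengths were recovered. The library constants keep a typical gene level within a line, so a change of total mRNA per cell would not show. Replicates of a group differed by more than counting error (chi-square 66.1 to 118 per degree of freedom).

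limma 3.58.1 (R 4.3.3), with a mean-variance trend and a two-sided test, was fitted to log2(value + 1) of genes with a mean of at least 1, in 4 groups sharing 1 spread estimate. Benjamini-Hochberg adjustment ran over all genes tested, and genes were called at 0.05. The script was tested on simulated data. Alternatives covered the pseudocount, the filter, 4 scalings, limma-voom on recovered reads, a replicate block, lines fitted alone and each library left out. The members and gene lists were chosen with earlier results of these data known. Named genes are the members, the 5 most like each, ranked and chromosomal neighbours, listed ZBED and hAT genes, and per list up to 4 called genes of largest change. Of these, 1 gene is not reported here. Others of the lists were named after their values were seen. Promoters came from RefSeq (GRCh38.p14) and gene structure from GENCODE 29.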

Additional observations from a re-analysis of the deposited data

How the results depend on the processing

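Over the alternatives run, the ZBED5 change stayed between -3.99 and -2.92 in CAL-62 and between -1.27 and -0.42 in BCPAP. No ZBED member was called in BCPAP or for the difference of the responses under any of them. In CAL-62, 1 of the 3 tested members was called with ribosomal protein genes as the reference (ZBED3, -1.21, limma adjusted p = 0.0328). Between the lines under DMSO, 1 was called with the sum of reads as the scale (ZBED4, limma adjusted p = 0.0379), 1 with limma-voom (ZBED4, adjusted p = 0.0452), and 0 to 1 when 1 library was left out, ZBED4 being called without either CAL-62 THZ1 library.

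The ZBED1 change in CAL-62 turned to -0.30 with the sum of reads, -0.69 with the ribosomal and -0.72 with the mitochondrial reference, which move the median of all genes there to -0.33, -0.78 and -0.81. In BCPAP it turned to -0.089, -0.13 and -0.28. Its difference between responses became 0.017 with median-of-ratios scaling, and its line difference 0.11 with the ribosomal reference. The ZBED5 line difference became -0.0023 with the mitochondrial reference. With 1 library left out, ZBED1 ran from -0.15 to 0.18 in CAL-62, from -0.013 to 0.12 in BCPAP and from -0.20 to 0.13 for the difference. ZBED3 ran from -0.89 to -0.078 in CAL-62, from 0.27 to 1.09 between the lines under DMSO, from -0.59 to 0.034 in BCPAP and from -0.62 to 0.20 for the difference, and ZBED4 from -0.61 to 0.090 in CAL-62. The cause was not tested.

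Same-numbered libraries of a line deviated together from their group means (correlation 0.779 in BCPAP and 0.469 in CAL-62), but the labels do not say what a number marks. With the replicate number as a block, 2 members were called between the lines (ZBED3, limma adjusted p = 0.0193, and ZBED4, 0.0266), and none in the other comparisons. The block raised the calls among all genes in CAL-62 from 525 to 4563. It called lower there 58.1% of the genes of the 6 transposon lists, 62.4% of numbered ZNF genes and 18.1% of all genes. That count was 0 with each line fitted alone, 0 to 811 with 1 library left out, and 1491, 3311 and 266 with the sum of reads, ribosomal and mitochondrial references. For ZBED3, ZBED8 and FAM200A, depth limits what can be seen after THZ1.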
